A study of Cucumis sativus with 11 samples.

Results

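The 150 most abundant transcripts of unstressed cucumber leaves were followed through salt and silicon treatment. They are the 150 of 20165 listed genes with the highest mean RPKM in the 3 control libraries. RPKM is a read number corrected for the length of the gene and the size of the library. It is a level per length, on which genes can be set beside each other. The study asked how silicon changes gene expression in leaves under salt stress. All plants were hydroponic seedlings of the cultivar JinYou 1 in Hoagland solution, and 4 groups of libraries were made from leaves taken 3 days after treatment began. Control plants (3 libraries) got nutrient solution alone, salt plants (3 libraries) 75 mM sodium chloride, silicon plants (2 libraries) 0.3 mM sodium silicate, and salt plus silicon plants (3 libraries) both. Sodium silicate itself carries sodium, and each library was made from 3 leaves combined, so the spread between libraries is that of such pools.

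In green leaves the nuclear transcripts at the top of the abundance scale usually encode the machinery of photosynthesis. They include the small subunit of Rubisco, which fixes carbon dioxide together with a large subunit made in the chloroplast, the chlorophyll a/b-binding proteins that harvest light, and subunits of the photosystems. Housekeeping genes of protein synthesis and abundant stress and cell wall proteins also reach high levels. A few such genes can hold a large part of a leaf's messenger RNA, and their share then sets how much is left for all others. Which of the 150 genes belong to these families is not known from the files used here. The files give IDs of the form Csa5G609710 and no gene names. The reference table lists 23999 genes, and 0 of the IDs could be found in it. Leaf markers could not be looked up for the same reason, and no sequence is shown.

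The control libraries chose the genes, so their control values are high partly by choice. Every value set against control below is therefore a description with no test. The salt, silicon and salt plus silicon libraries took no part in the choice, and the tests compare these groups with each other. Control means of the 150 genes ran from 788 to 94993 RPKM. At the limit, Csa6G518000, the last gene inside, had 1429, 585 and 349.5 RPKM in control 1 to 3, a mean of 788. Csa1G009690, the first gene outside, had 873, 727 and 742 RPKM, a mean of 781. None of the 150 genes was listed at 0 in any library, the lowest value being 109 RPKM in salt 3. All 150 were above 1 RPKM in at least 2 libraries, the filter for the tests, and so none was left out.

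Over these genes the control libraries differed among themselves. Of the 150 genes, 112 (74.7%) were among the 150 highest of each control library taken alone, 28 of 2 control libraries and 10 of 1. The highest control library stood above the lowest by a median of 1.47-fold, and by 2-fold or more in 19 genes. Across the 150 genes, log2 levels of control 1 correlated with silicon 2 at r = 0.957, with control 2 at 0.911 and with control 3 at 0.811. These correlations are over genes, which are not independent replicates, and every pair shares the same choice of genes. Control 1 thus lay nearer to a silicon library than to the other controls. The share of the list in control is given below also with control 1 kept out of the choice. Depth relative to control 1, read from the smallest steps of low values, was between 0.878 and 1.15, and absolute depth is unknown.

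The 150 genes held less of the leaf messenger RNA in all treated groups than in control, and least in silicon leaves. Their share of summed RPKM was 41.1%, 50.2% and 46.7% in control 1 to 3, a mean of 46.0% ± 4.60 (SD, n = 3). It was 37.6%, 37.6% and 40.6% in salt 1 to 3, a mean of 38.6% ± 1.74 (n = 3). In silicon 1 and 2 it was 31.8% and 33.3%, a mean of 32.5% ± 1.02 (n = 2). In salt plus silicon 1 to 3 it was 40.0%, 38.5% and 35.6%, a mean of 38.0% ± 2.22 (n = 3). No treated library reached the lowest control library, although salt 3 lay just below it, at 40.6% against 41.1%. Both silicon libraries lay below all other libraries, while the salt and the salt plus silicon libraries overlapped. Relative to the control share the ratio was 0.839 with salt, 0.826 with both agents and 0.707 with silicon alone. In bulk leaves, fewer cells of a type and less RNA per cell cannot be told apart.

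**Figure D1:**
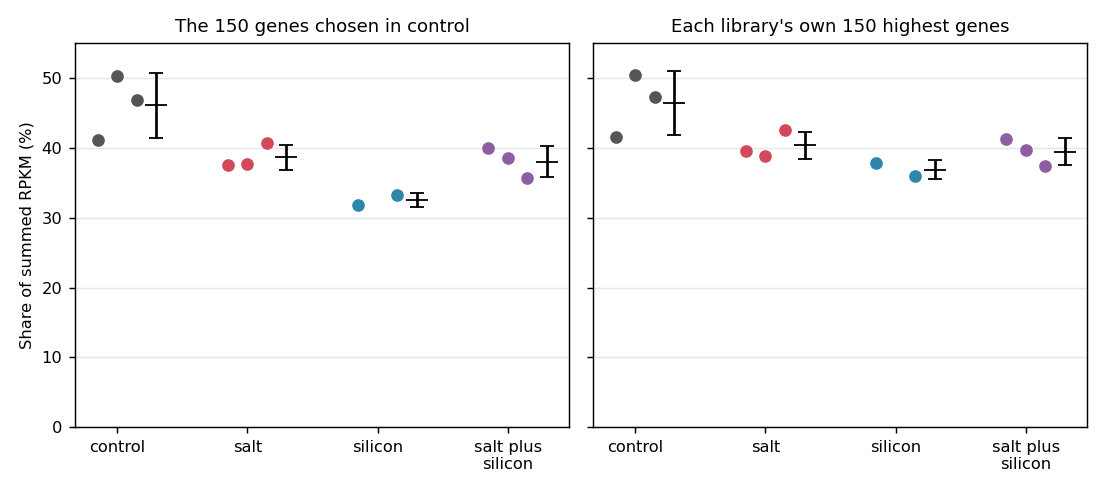
Share of summed RPKM (%, vertical axis) in each library, by group (horizontal axis), for the 150 genes chosen in control (left) and for each library's own 150 highest genes (right). Points are libraries and the black mark with bars is the mean ± SD (n = 3, or 2 for silicon). On the left both silicon libraries (31.8% and 33.3%) lie below all others. On the right salt 3, at 42.6%, lies above control 1, at 41.5%.

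The choice of genes by their control values lifts the control share, and 2 measures limit this. The first still takes its genes from control leaves, which favours control, and only the second treats all groups alike. In the first, the 150 genes were chosen again from 2 control libraries and read in the third, which had no part in the choice. Control 1 then held 40.5%, control 2 49.9% and control 3 46.3% in such genes. With control 1 held out, the same genes held 38.3% ± 1.73 with salt (SD, n = 3), 32.1% ± 1.20 with silicon (n = 2) and 37.6% ± 2.42 with both (n = 3), that is, 0.945, 0.792 and 0.929 of the control value. With control 2 held out the ratios were 0.773, 0.655 and 0.759, and with control 3 held out 0.838, 0.711 and 0.825. All 9 ratios were below 1, and those of salt and salt plus silicon came nearest to 1 with control 1 held out. The 9 ratios are not independent, since they share the treated libraries and most genes. Each also rests on 1 control library. In the second, every library was ranked by itself and its own 150 highest genes were summed. Their share was 41.5%, 50.4% and 47.2% in control 1 to 3, and 39.6%, 38.8% and 42.6% in salt 1 to 3. It was 37.8% and 35.9% in silicon 1 and 2, and 41.2%, 39.7% and 37.4% in salt plus silicon 1 to 3. The means were 46.4% ± 4.53 (SD, n = 3) for control, 40.3% ± 1.99 (n = 3) for salt, 39.4% ± 1.91 (n = 3) for salt plus silicon and 36.9% ± 1.34 (n = 2) for silicon. By this measure salt 3 lay above control 1, silicon 1 lay above salt plus silicon 3, and only control 2 and control 3 lay above every treated library.

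The lower share was steepest at the very top of the order. The first gene held 8.69% ± 1.41 of summed RPKM in control, and its share with salt, with silicon and with both was 0.718, 0.535 and 0.709 of that. For the genes ranked 2 to 10 the ratios were 0.772, 0.669 and 0.779, from a control share of 9.82% ± 1.47. For ranks 11 to 50 they were 0.862, 0.745 and 0.842, from 14.9% ± 1.82. For ranks 51 to 150 they were 0.945, 0.810 and 0.923, from 12.7% ± 0.447. These are ratios of means, and some single libraries overlapped. For the first gene salt plus silicon 1 held 7.54%, above control 1 at 7.08%. For ranks 2 to 10 salt plus silicon 3 held 8.19%, just below control 1 at 8.21%. For ranks 11 to 50 salt 3 held 14.19% and salt plus silicon 1 13.15%, both above control 1 at 13.11%. For ranks 51 to 150 salt 3 held 12.73%, above control 1 at 12.72%. The silicon libraries lay below all controls in each of these classes. The next 350 genes stood at 1.01, 1.10 and 1.02 of their control share of 14.5% ± 0.981. The remainder of the library was larger in treated than in control leaves, with ratios of 1.11, 1.20 and 1.12 for the following 1500 genes and 1.25, 1.40 and 1.26 for the last 18165. Shares add up to 100% in each library, so a lower share at the top is a higher one elsewhere, and the order itself was taken from the control values.

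**Figure D2:**
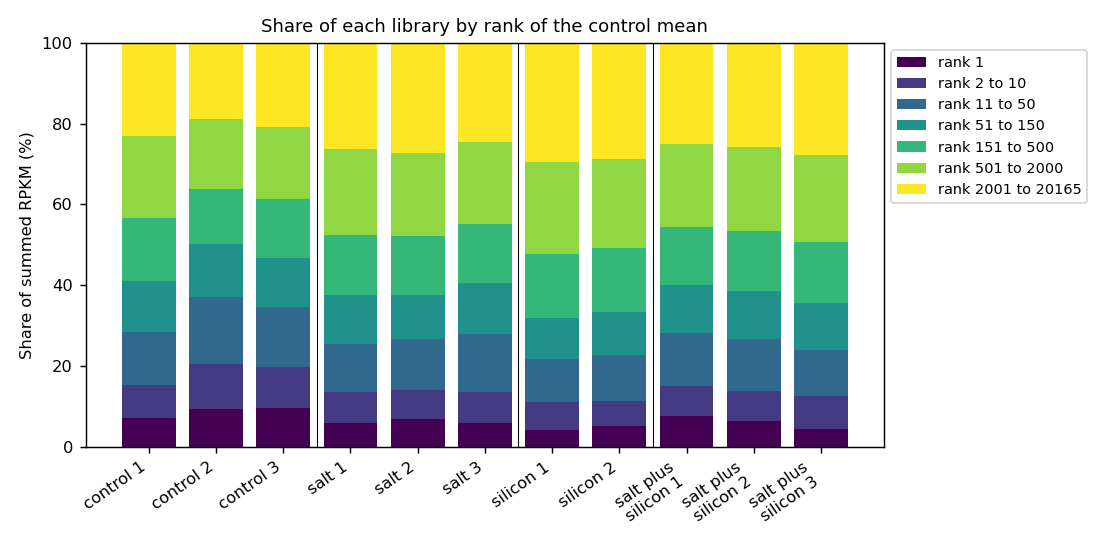
Share of summed RPKM (%, vertical axis, stacked to 100) held in each of the 11 libraries (horizontal axis) by 7 classes of genes, ranked once by their control mean. The 4 lowest blocks are the 150 genes of this description. They end at 50.2% in control 2 and at 31.8% in silicon 1.

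Csa5G609710 had the highest RPKM in every library, from 43958 in salt plus silicon 3 to 103131 in control 2. It made up between 12.4% and 20.7% of the summed RPKM of the 150 genes. Without it, the mean share of the other genes of the list was 37.3% in control and 27.9% in silicon leaves, and with salt it was 32.4% without and 31.9% with silicon. Between salt plus silicon and salt its log2 change was -0.04 ± 0.30 (SE), with a 95% interval of -0.72 to 0.63.

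The next genes in order did not follow one course. Csa4G154310 had 17722, 14616 and 16302 RPKM in control 1 to 3, 9429, 7909 and 4699.9 in salt 1 to 3, 10854 and 13640.5 in silicon 1 and 2, and 5545, 9288 and 17614 in salt plus silicon 1 to 3. All salt libraries were below all control and silicon libraries, and salt plus silicon 3 stood as high as the controls. Csa5G182730 had 12559, 19047 and 14975 RPKM in control, 19199, 13072 and 19779 in salt, 11252 and 9149 in silicon, and 20674, 15659 and 20373 in salt plus silicon libraries. It was the one among the first 5 whose salt and salt plus silicon means (17350.2 and 18902 RPKM) were above the control mean (15527 RPKM), with overlap, and its silicon libraries lay below all others. Its log2 change between salt plus silicon and silicon was 0.89 ± 0.30 (SE, limma adjusted p = 0.102), which does not pass the threshold of 0.05.

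Csa5G367180 had 11279.9, 16580.3 and 15059 RPKM in control, 7159, 4963 and 4856 in salt, 17244 and 6842 in silicon, and 5871, 4989 and 8155 in salt plus silicon libraries. The silicon libraries differed widely, silicon 1 being above and silicon 2 below every control. Csa4G064020 had 12196, 15096 and 10269.5 RPKM in control, 8743, 8806 and 9333 in salt, 7297 and 8186 in silicon, and 9057, 8434 and 7889 in salt plus silicon libraries. All its treated libraries lay below all controls and close together, and its SD over the 8 treated libraries, 0.115 on the log2(RPKM + 1) scale, was the smallest of the 150.

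**Figure D3:**
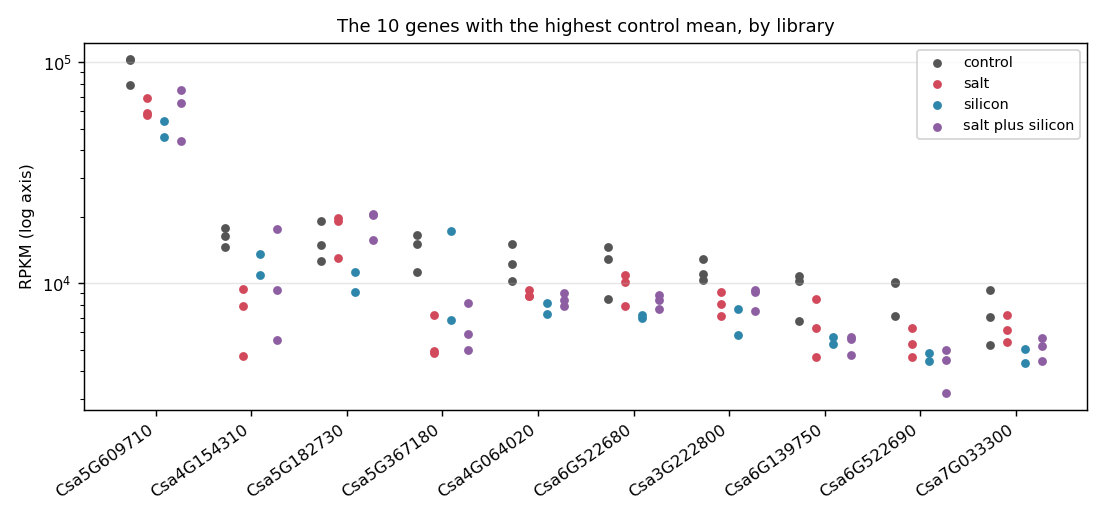
RPKM (log axis) of the 10 genes with the highest control mean (horizontal axis, in order), with 1 point per library coloured by group. Csa5G609710 stands above all other genes in every library, at 43958 RPKM or more. Csa5G182730 has its lowest values in silicon, at 11252 and 9149 RPKM, and Csa5G367180 has silicon libraries at 17244 and 6842 RPKM.

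Most of the 150 genes had a mean below control in each treated group. With salt, 118 of the 150 means were below the control mean and the median log2 ratio of means was -0.41, against 0.11 over all 17408 tested genes. With silicon 122 were below, with a median of -0.65 against 0.16, and with salt plus silicon 121, with a median of -0.50 against 0.12. The 3 comparisons share their controls, and the genes were chosen for high control values, so nothing is read from these counts. Summed RPKM also differed, with means of 991420 with salt and 996118 with both agents, against 1095909 in control and 1078866 with silicon alone. Here and in the main tests RPKM was used as deposited, without rescaling to equal sums. In salt, 20 of the 150 genes were lower by 2-fold or more (6.25% of all tested genes were) and 4 higher (6.51%). In silicon, 10 were lower (2.63%) and 1 higher (11.4%), and in salt plus silicon, 13 were lower (5.39%) and 4 higher (6.13%). All libraries lay below all controls in 60 genes with salt (9.06% of all tested), 96 with silicon (11.9%) and 75 with salt plus silicon (9.86%). All lay above in 7 (20%), 5 (30.4%) and 11 (22.1%).

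The lowest ratios to control with salt were those of Csa2G055570, at 0.121 of the control mean in salt and 0.116 in salt plus silicon leaves. In silicon leaves its ratio was 0.404, and that of Csa4G124910 was the lowest of the list, at 0.331. Csa2G055570 had 1513, 1526 and 1957 RPKM in control, 269, 227 and 109 in salt, 771 and 576 in silicon, and 254, 153 and 173 in salt plus silicon libraries. The control, silicon and salt-treated libraries formed 3 levels with no overlap, and it stood at place 81 in the control order and at 732 and 785 with salt, without and with silicon. Csa3G826660 had 2565, 3285 and 2984 RPKM in control, 368, 383 and 647 in salt, 1937 and 3004 in silicon, and 1519, 1381 and 712 in salt plus silicon libraries. Its salt plus silicon libraries lay between the salt and the silicon libraries with no overlap. Csa4G124910 had 915, 1026 and 589.6 RPKM in control, 273, 182 and 245 in salt, 232 and 327 in silicon, and 309.6, 229 and 232 in salt plus silicon libraries, so that the treated groups overlapped well below control. Csa1G445860 had 1569.8, 2554 and 2689.5 RPKM in control, 323, 1424 and 803 in salt, 1132 and 1307 in silicon, and 292, 686 and 316 in salt plus silicon libraries. All its treated libraries lay below all controls, and salt 2 stood well above the other salt libraries.

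Other genes of the list had a mean above control in at least 1 treated group. Csa3G734260 had 3983, 4436 and 2302 RPKM in control, 5322, 3941 and 8171 in salt, 8395 and 9397 in silicon, and 8942, 8099 and 8905 in salt plus silicon libraries. The 5 libraries given silicon lay close together and above all controls. Salt 1 and salt 3 also lay above all controls, and salt 3 lay within the range of the silicon-fed libraries. Salt 2 lay within the range of the controls. The gene stood at place 37 in the control order and at place 5 in both silicon-fed groups, and its salt mean was 5812 RPKM. Csa4G031000 had 1290.0, 1353 and 388 RPKM in control, 3617, 760.1 and 4837 in salt, 1298 and 677 in silicon, and 2515, 1568 and 2915 in salt plus silicon libraries. Csa6G000080 had 1945, 2477 and 668 RPKM in control, 6209.8, 623 and 5013 in salt, 3628 and 2377 in silicon, and 4545, 3681 and 3678 in salt plus silicon libraries. Csa7G398090 had 3089, 1335 and 468 RPKM in control, 2919, 949 and 3325 in salt, 3778 and 2747 in silicon, and 2657, 1645 and 4367 in salt plus silicon libraries. In each of these 3 genes control 3 and salt 2 were far below the other libraries of their group.

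That feature was shared by a few of the most variable genes. Control 3 was 2-fold or more below both other controls in 7 of the 150 genes (4.67%, against 3.53% of all tested genes), and salt 2 below both other salt libraries in 7 (4.67%, against 3.05%). The same 5 genes were in both sets, which is 71.4% of each. They were Csa3G105950, Csa6G000080, Csa7G398090, Csa4G621720 and Csa4G031000, named after their values were seen. The overlap was not counted over all tested genes. Over all tested genes, the deviations of control 3 and salt 2 from their group means correlated at r = 0.246. That was the highest value of any pair of libraries from different groups, so the likeness was not limited to the list. Csa3G105950 had the largest SD over the 8 treated libraries, 1.23 on the log2 scale, with 549 RPKM in control 3 against 3771 and 3861 in the other controls, and 661 in salt 2 against 7003 and 9675 in the other salt libraries. A mean over salt libraries of such a gene, 5779.8 ± 4630.2 RPKM here, says little about any 1 library. What set control 3 and salt 2 apart in these genes was not tested.

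Most of the list was steadier. Over the 8 treated libraries the SD of log2 levels had a median of 0.302 in the 150 genes and 0.358 in all tested genes, and in 87 genes (58.0%) the highest treated library was less than 2-fold above the lowest. Besides Csa4G064020, the smallest SD was that of Csa3G150160, 0.121, with 1109, 1134 and 1049.7 RPKM in salt, 949.6 and 1138 in silicon, and 1191, 1157 and 968 in salt plus silicon libraries, against 1418, 2289 and 1918 in control. Its treated libraries, too, were all below its controls. Within groups, the median SD over the 150 genes was 0.289 in control, 0.274 in salt, 0.203 in salt plus silicon and 0.176 in the 2 silicon libraries. Over all tested genes it was 0.316, 0.303, 0.231 and 0.204 in the same order. The median of SDs from 2 libraries tends to lie lower than from 3, so the silicon value cannot be ranked with the others.

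Silicon added to salt was compared with salt alone, and none of the 150 genes passed the test. The libraries compared did not choose the genes, but the controls entered the fit's estimate of the spread. Among all tested genes 3 passed (0.0172%, with 0.0115% higher and 0.00574% lower), so the background was near 0 as well. In a fit without the controls, none of the 150 genes and 6 of all tested genes passed. At an unadjusted limma p under 0.05 there were 4 of the 150 genes, 2.67%, against 2.81% of all tested genes. The median log2 change was -0.02 in the 150 genes, with 69 higher and 81 lower means, against 0.03 in all genes. For 119 of the 150 genes (79.3%) the 95% interval of the log2(RPKM + 1) change excluded a change of 2-fold or more, up or down, against 68.9% of all genes. For the others it did not. All salt plus silicon libraries lay above all salt libraries in 4 of the 150 genes (3.87% of all tested genes) and below in 4 (2.48%). The highest estimate was that of Csa3G826660, at 1.34 ± 0.33 (SE), a log2 change with a 95% interval of 0.60 to 2.09. It was not called, its limma adjusted p over all tested genes being 1.

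Salt was also compared between silicon-fed groups, and 4 of the 150 genes passed the test, 3 higher and 1 lower with salt. That is 2.67% of them, against 9.87% of all tested genes (2.61% higher and 7.26% lower). After quantile normalization, which moved the median of all genes to 0.15, the count was 19 (12.7%, against 11.9% of all tested genes), with 18 higher and 1 lower. The median log2 change was 0.12 in the 150 genes and 0.00 in all genes, with 95 higher and 55 lower means. All salt plus silicon libraries lay above both silicon libraries in 44 of the 150 genes (29.3%, against 21% of all tested genes) and below in 24 (16%, against 25.5%). For 87 genes (58.0%) the 95% interval excluded a change of 2-fold or more, against 45.0% of all genes. The comparison rests on 2 silicon libraries: without silicon 1 none of the 150 genes passed, without silicon 2 there were 3 of which 1 was among these 4, without salt plus silicon 1 there were 2, and without salt plus silicon 3 there was 1.

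**Figure D4:**
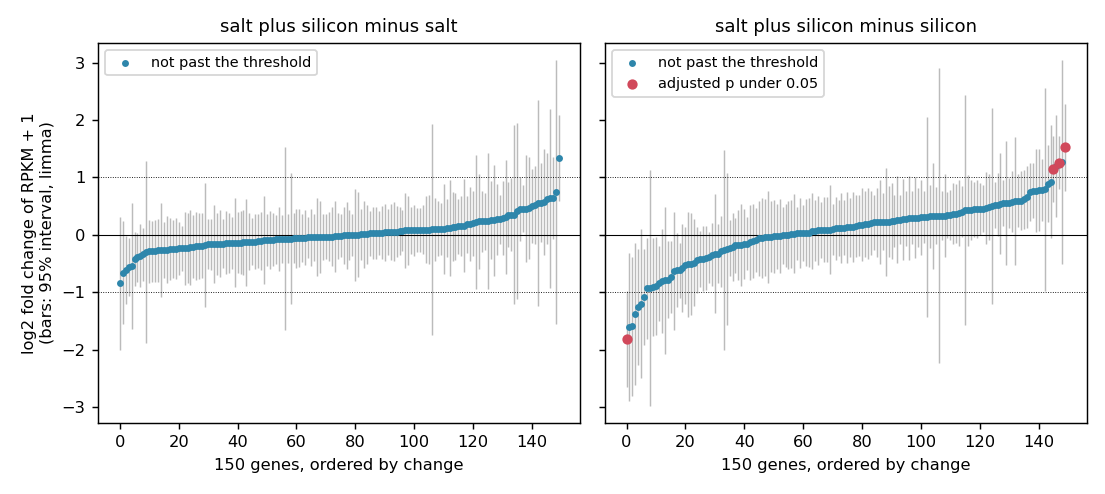
Log2 fold change of RPKM + 1 (vertical axis, with 95% intervals from limma) of the 150 genes, ordered by change (horizontal axis), for salt plus silicon minus salt (left) and salt plus silicon minus silicon (right). Dotted lines mark 2-fold. No gene passes the threshold on the left, where the median is -0.02, and 4 genes pass on the right.

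Csa7G267900 had 876 and 882 RPKM in silicon and 1987, 1965 and 2388 in salt plus silicon libraries. On the log2 scale it rose with salt by 1.26 ± 0.20 (SE), with a limma adjusted p of 0.00523. Its salt libraries, at 2106, 1861 and 2589 RPKM, and its controls, at 1086, 1404 and 1241 RPKM, did not overlap either. The call was lost without silicon 1 and in no other fit tried.

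Csa3G851720 had 664 and 580.4 RPKM in silicon and 2049, 1398 and 1987 in salt plus silicon libraries, a log2 rise of 1.52 ± 0.34 (SE, limma adjusted p = 0.0207). It had 946, 1307 and 549.7 RPKM in control and 1270.0, 1064 and 1436 in salt libraries, which overlapped. Csa2G351700 had 667 and 669.9 RPKM in silicon and 1559, 1304 and 1575 in salt plus silicon libraries, a log2 rise of 1.14 ± 0.26 (SE, limma adjusted p = 0.0221). It had 933, 1299.5 and 1223 RPKM in control and 1546, 1027 and 1816 in salt libraries, again with overlap. Both calls were lost without either silicon library, and without salt plus silicon 1 or salt plus silicon 3. With replicate number as a block both calls were lost too. That of Csa2G351700 was also lost after median-of-ratios scaling (limma adjusted p = 0.0600).

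Csa2G055570, the gene with the lowest ratios to control in both salt-treated groups, fell with salt between the silicon-fed groups, from 771 and 576 RPKM to 254, 153 and 173. On the log2 scale it fell by 1.81 ± 0.37 (SE), with a limma adjusted p of 0.0143. Between salt plus silicon and salt its log2 change was 0.00 ± 0.33 (SE), with a 95% interval of -0.74 to 0.75. The call between the silicon-fed groups was lost without either silicon library and without salt plus silicon 3.

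**Figure D5:**
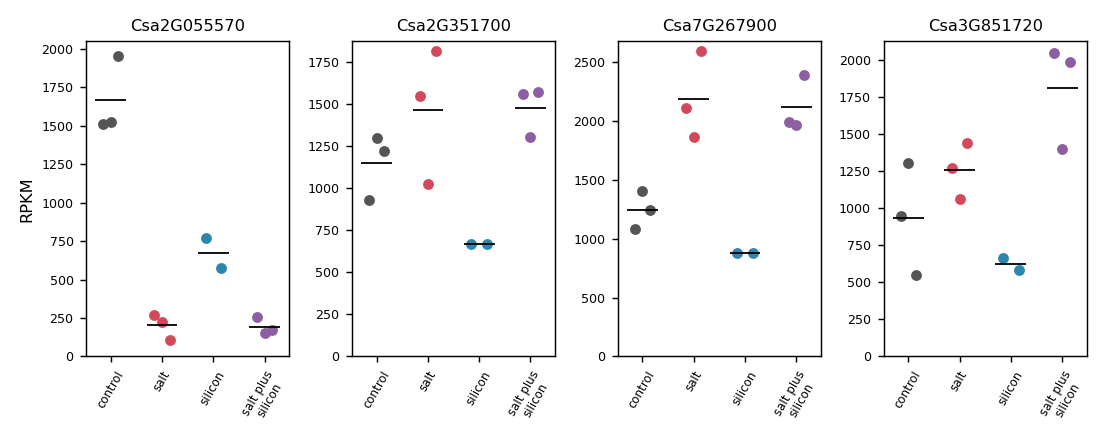
RPKM (vertical axes, from 0) in each library, by group, of the 4 genes that passed the test between salt plus silicon and silicon. Points are libraries and lines are group means (n = 3, or 2 for silicon). Csa2G055570 stands at 193 RPKM in salt plus silicon and 673 in silicon, and the other 3 genes have their lowest means in silicon, at 669, 879 and 622 RPKM.

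Fewer of the 150 genes stayed among the 150 highest in silicon leaves than in the other treated groups. Of the 150 genes, 121 (80.7%) were among the 150 highest of the salt means, 108 (72.0%) of the silicon means and 122 (81.3%) of the salt plus silicon means. In single libraries the number was 135, 137 and 130 in control 1 to 3, which chose the genes, 116, 118 and 120 in salt 1 to 3, 101 and 111 in silicon 1 and 2, and 119, 120 and 114 in salt plus silicon 1 to 3. Silicon 1 and 2 were thus below all other libraries. A core of 78 genes (52.0%) was among the 150 highest of all 11 libraries, and 14 genes (9.33%) were in the top 150 of no treated library. Levels relative to each other within the list gave another order of likeness. Over the 150 genes the SD of the log2 differences from a control library was on average 0.685 for silicon, 0.781 for salt plus silicon and 0.829 for salt libraries, and the ranges over library pairs overlapped. Between control libraries themselves it was on average 0.619, from 0.514 to 0.762. This SD does not register a shift common to all genes of the list. For silicon it ran from 0.333 (silicon 2 with control 1) to 1.03 (silicon 1 with control 3).

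Genes that took the vacant places came from further down in silicon leaves. There were 29 such genes with salt, 42 with silicon and 28 with both, and 18, 18 and 17 of them came from the 150 places just below the limit in control. From beyond place 1000 came 14 genes in silicon leaves, 1 in salt leaves and 0 in leaves given both. The newcomers held 2.92% ± 0.538 of summed RPKM with salt (SD, n = 3), 6.49% ± 1.97 with silicon (n = 2) and 2.76% ± 0.120 with both (n = 3), against 1.34%, 1.45% and 1.29% for the same genes in control. They were picked for high treated values, so these shares are a description.

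The highest newcomer in silicon was Csa5G285030, with 8613 and 6331 RPKM in silicon 1 and 2, and 1164, 220.1 and 45.9 in control 1 to 3. It had 43.0, 8.01 and 79.6 RPKM in salt and 63.9, 125 and 167 in salt plus silicon libraries, so that both silicon libraries and, less so, control 1 stood apart from all others. The highest newcomer in salt was Csa7G037540, with 1087, 2553 and 2040.3 RPKM in salt and 1247, 1630.0 and 1561 in salt plus silicon libraries, against 235, 289 and 199.6 in control and 255 and 318 in silicon. All its libraries with salt lay above all others. In salt plus silicon it was Csa5G615220, with 1092, 1825 and 1619 RPKM, against 494, 392 and 197 in control, 925, 316 and 2042 in salt, and 1447 and 1481 in silicon libraries.

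The 150 genes were spread over the genome much as the listed genes are. By the convention of cucumber gene IDs the digit after Csa stands for the chromosome. Digit 3 was the most frequent, with 36 of the 150 genes (24%, against 20.8% of listed genes), then 6 with 26 (17.3% against 16.6%) and 1 with 20 (13.3% against 14.5%), and the others held between 15 and 19 genes. A few abundant genes were neighbours by ID number, which runs along the chromosome in steps of 10. Csa6G522680 and Csa6G522690 differ by 1 step and stood at places 6 and 9. In control 1 to 3 the first had 8507, 14528 and 12931 RPKM and the second 7135, 10095 and 10050.5 RPKM. With salt plus silicon the first had 8893, 8370.0 and 7638 RPKM and the second 4521, 5016 and 3186, so as a ratio these levels lay further apart than the control levels. As a ratio of means the same held in the other treated groups. The means were 9642 and 5399 RPKM in salt, and 7068 and 4647 RPKM in silicon. Csa7G037590 and Csa7G037600, at places 148 and 65, were the other such pair. If neighbours are near-identical copies, the authors' counting could have divided reads between them, so levels within a pair are uncertain.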

How the data were processed

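Leaf RNA of 4 groups was measured in 11 libraries. Per the labels' protocols, libraries were made from poly(A) RNA with no record of strand, so overlapping genes on opposite strands share reads. The submitters' processing notes name TopHat2. Not given in the sources used here: its version and settings, the counting program, the annotation and the genome build. RPKM values were deposited by the authors, 1 per gene and library, as the names of the deposited tables say. Without counts the absolute depth could not be found, and intervals for counting error were not made. Any 2 libraries agreed exactly in at most 1 gene above 0, so each was counted as a sample of its own.

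A share is the RPKM of a gene set divided by the summed RPKM of the library, which was between 974471 and 1117426. For the tests, log2(RPKM + 1) was used for the 17408 genes that reached 1 RPKM in 2 or more libraries. The test was limma (version 3.58.1, R 4.3.3) with a mean-variance trend, a mean for each of the groups, and 7 residual degrees of freedom. It was two-sided, with Benjamini-Hochberg adjustment over all tested genes and a threshold of 0.05. Fold changes on this scale understate changes of low genes. The script was tested on simulated data. The labels call the libraries of a group biological replicates, and their numbers were not used as pairs. Python 3.11.15, pandas 2.3.3, numpy 2.4.6 and matplotlib 3.10.9 were used.

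The list of genes and the tests were chosen with earlier results of these data known. Named genes are the 5 highest in control, the 2 highest and 2 lowest by ratio to control in each treated group, the genes past the threshold, the 2 least and 2 most variable over the treated libraries, the genes at the limit, and the highest newcomer of each treated group. Gene families could not be counted, since IDs matched no names. Alternatives were quantile normalization, median-of-ratios scaling, a pseudocount of 0.1, filters of 0 and 5 RPKM, robust moderation, a replicate block, fits of fewer groups, other list sizes, choice by the control median, and leaving out each library.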

Additional observations from a re-analysis of the deposited data

How the results depend on the processing

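Between salt plus silicon and salt, none of the 150 genes passed the test under any alternative tried, including the replicate block, and the median log2 change ran from -0.06 to 0.04 with 1 library left out. Between salt plus silicon and silicon the count of 4 became 8 with the 5 RPKM filter, 19 after quantile normalization and 2 with a replicate block, and ran from 0 to 5 with 1 library left out. The median log2 change of 0.12 became 0.26 after quantile normalization and ran from -0.0099 to 0.22 with 1 library left out. Over 15 pairs of same-numbered libraries, deviations from the group means correlated at -0.195 to 0.156, with 5 pairs over 0.1. Over 30 pairs with different numbers they correlated at -0.162 to 0.246, with 4 over 0.1. Same-numbered pairs without a control library were all positive, from 0.008 to 0.156. These values do not decide whether the block describes the design better. With the block, limma adjusted p was 0.0511 for Csa3G851720 and 0.0605 for Csa2G351700, the 2 genes no longer called. All alternatives gave the 4 named changes the direction reported. Leaving out the highest gene gave shares of 37.3% in control, 32.4% in salt, 31.9% in salt plus silicon and 27.9% in silicon libraries, and quantile normalization gave 40.5% in control and 36.3% in silicon. The ratios to control after quantile normalization, which makes the overall distribution of all libraries alike, were 0.966 for salt, 0.973 for salt plus silicon and 0.895 for silicon. With 1 library left out, or with 1 control kept out of the choice and read alone, the control share ran from 40.5% to 49.9%, and the ratios from 0.773 to 0.945 for salt, from 0.759 to 0.929 for salt plus silicon and from 0.655 to 0.792 for silicon. Where not given by construction, the cause of these shifts was not tested. Other list sizes and choice by the median kept the ratios within the spread between libraries.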
